A study of Mus musculus with 37 samples.

Results

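The genes described here are 10 genes that move calcium in the cardiac muscle cell. They were chosen by name, with earlier results of these data known: Atp2a2, Pln, Ryr2, Casq2, Trdn, Hrc, Cacna1c, Slc8a1, Jph2 and Camk2d. Each was found as 1 row of the deposited table, which lists 56748 genes, and all 10 were among the 16530 genes that passed the filter on low values. Levels came from bulk RNA sequencing of left ventricle from C57BL/6J mice of both sexes, 8 to 10 weeks old, with the apex, where the needle could injure the wall, left out. The 5 Naive mice had anaesthesia only, with no intubation and no injection, and their hearts were taken without a recovery time. Mice of the Adr groups, whose labels read sham, were intubated and ventilated, had saline injected into the left ventricle and then adrenaline at 15 µg/mL into the ventricle 8 min later. Mice of the Arrest groups had potassium chloride in place of saline, 8 min of asystole, the same adrenaline and chest compressions. Only mice whose circulation returned were kept. In the paper, later deaths occurred only in the 3-day and 7-day Arrest groups, whose hearts therefore came from survivors. Hearts were taken 0.5, 1, 3 or 7 days later, 4 per group, which gave 37 libraries in 9 groups. Adrenaline was common to the Adr and Arrest groups, and no group had ventilation without adrenaline, so intubation, injection and adrenaline cannot be told apart in a comparison with Naive. Each library was taken as 1 mouse, which the labels do not state, so p-values measure the spread between these libraries, which may be technical.

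Each heartbeat begins with calcium entering through the L-type channel, whose pore subunit is Cacna1c. That calcium opens the ryanodine receptor Ryr2 on the sarcoplasmic reticulum, the store inside the cell. There Casq2 and Hrc hold calcium and, with Trdn, shape its release. The pump SERCA2, made from Atp2a2 and held back by phospholamban (Pln), returns calcium to the store, while the exchanger Slc8a1 carries it out of the cell. Jph2 tethers the store to the cell membrane, and the kinase Camk2d phosphorylates the receptor and phospholamban. In heart failure and after ischaemia this cycle is a classical site of contractile weakness.

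The unit is FPKM, fragments scaled to the length of the gene and to a factor for each library, so levels can be set beside each other across genes. That factor was not depth alone, since the deposited values already had equal median ratios between libraries. Libraries held 13.2 to 30.2 M fragments on genes, and the member with the fewest had 1079 in a library. Among the 37 libraries, Adr 3-day replicate 3 stood apart: 9.36% of its fragments were mitochondrial against 20.8% to 30.9% in the other libraries. Its summed level of 10 cardiomyocyte markers was 4638 FPKM while the others of that group read 11790 to 19803, and its leukocyte marker sum of 2187 FPKM was above the 354 to 557 FPKM of the others in its group. The study left out a poor-quality 3-day Adr sample without naming it in the sources used here. Counts of members that passed are therefore given with that library in the fit and without it.

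In the Naive ventricle the members spanned a wide range of levels. Atp2a2 was highest at 1562 ± 151 FPKM (SD, n = 5), followed by Pln at 606 ± 76.5, Casq2 at 233 ± 26.8, Hrc at 182 ± 26.3 and Jph2 at 104 ± 15.8. Ryr2 stood at 42.4 ± 1.80 and Trdn at 33.2 ± 3.07. Slc8a1 at 14.2 ± 2.52, Cacna1c at 7.69 ± 1.32 and Camk2d at 6.04 ± 0.555 were the lowest. The spread of Ryr2 between Naive mice was small, 4.25% of its mean.

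**Figure D1:**
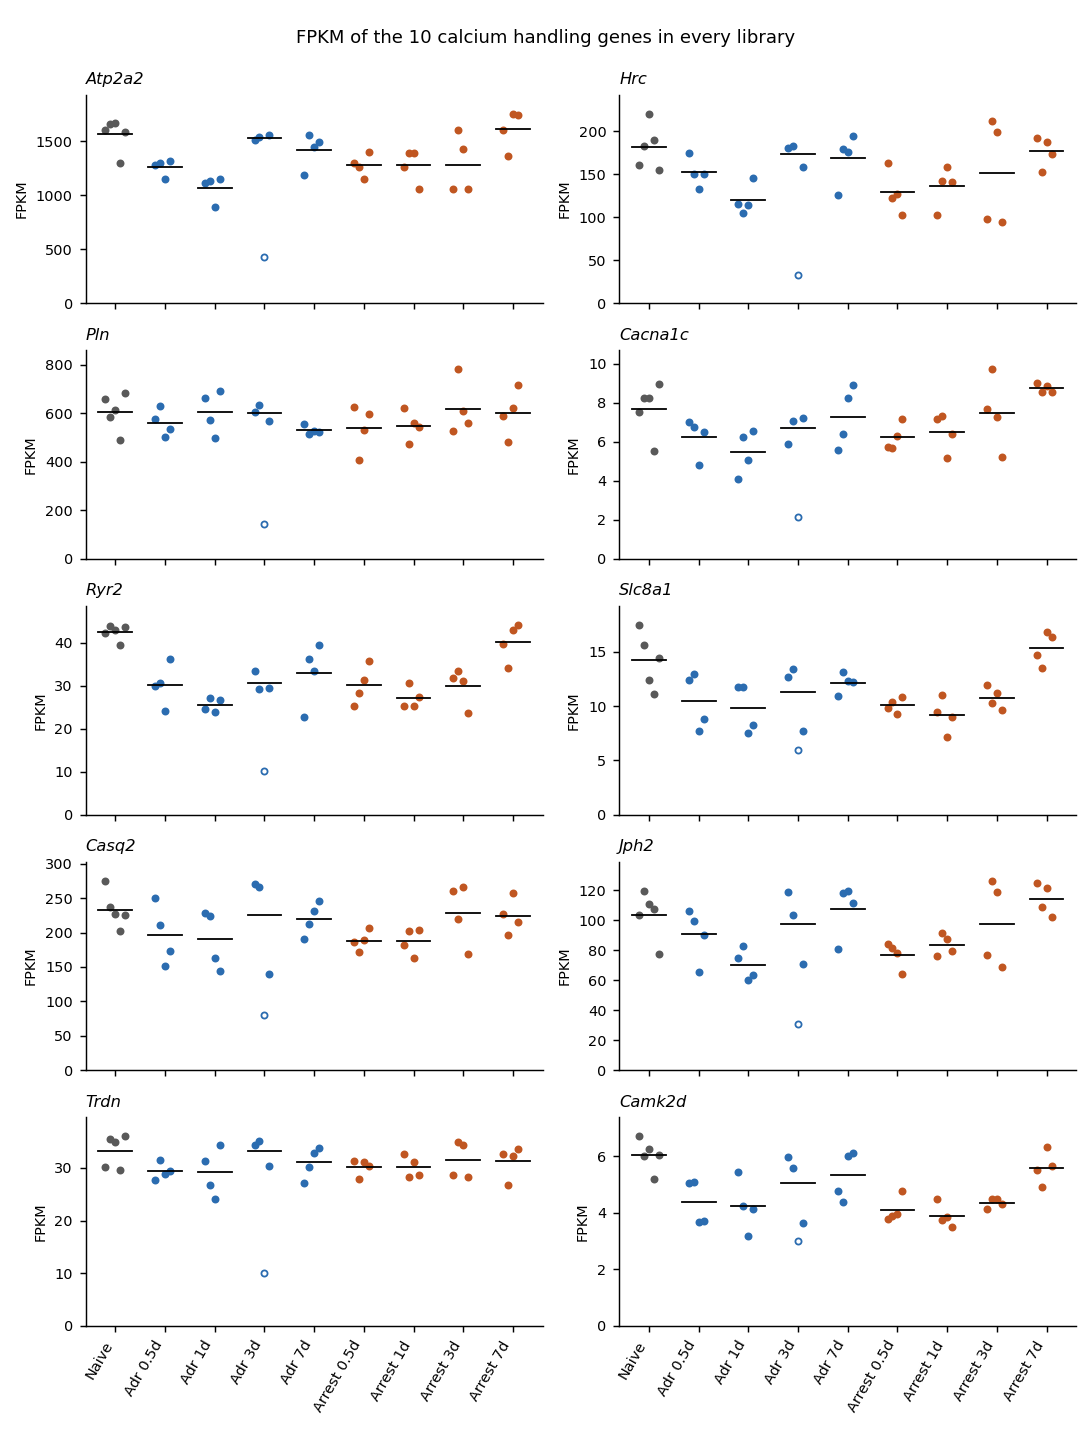
FPKM (vertical axes, from 0) of the 10 genes in each of the 37 libraries, by group (horizontal axis). Points are libraries, grey for Naive, blue for Adr and orange for Arrest, and the horizontal line is the group mean, which leaves out the open point, Adr 3-day replicate 3. Ryr2 lay between 39.3 and 43.8 in Naive and between 23.9 and 30.5 in the 1-day groups, while Pln overlapped Naive in every group.

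The members that passed the test against Naive were all lower, and more of them passed once the library that stood apart was left out. All 10 members had a mean log2 level below Naive at 0.5 and 1 day in both arms, with medians over the 10 of -0.26 and -0.47 in Adr and -0.36 and -0.30 in Arrest, whereas the median of all genes tested lay between 0.03 and 0.04 in those comparisons. Because the tissue was bulk ventricle, fewer cardiomyocytes and less of a transcript per cardiomyocyte cannot be told apart. In the limma fit of all libraries, 2 of the 10 members passed an adjusted p of 0.05 at 1 day after arrest, both lower, beside 7.11% of all genes tested. Those were 1176 genes, 641 of them higher, and after quantile normalization 1013, 391 of them higher. No member passed in the other Arrest groups, where the background was 3.21% at 0.5 days, 0.139% at 3 and 0% at 7. None passed in Adr either, with a background of 0.188% at 0.5 days, 0.69% at 1, 0% at 3 and 0% at 7. At an unadjusted p under 0.05 the counts in order of time were 3, 6, 10 and 0 of 10 for Adr, beside 14%, 14.7%, 13.9% and 6.15% of all genes tested, and 3, 3, 2 and 0 for Arrest, beside 18.2%, 21.7%, 13.7% and 5.15%.

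Without Adr 3-day replicate 3, more members passed, and again all of them were lower than Naive. After arrest these were 2 of 10 at 0.5 days (background 5.51%), 3 at 1 day (10.3%), 1 on day 3 (1.13%) and 0 on day 7 (0%). In Adr the counts were 1 at 0.5 days (1.35%), 2 at 1 day (2.52%), 0 on day 3 (0%) and 0 on day 7 (0%). At 3 days of Adr the median difference of the 10 members was -0.49 with that library and -0.10 without it. The 3-day Adr values with all libraries thus rested on 1 heart, and 10 of 10 unadjusted passes became 1 of 10 when it was left out, where 7.28% of all genes passed.

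**Figure D2:**
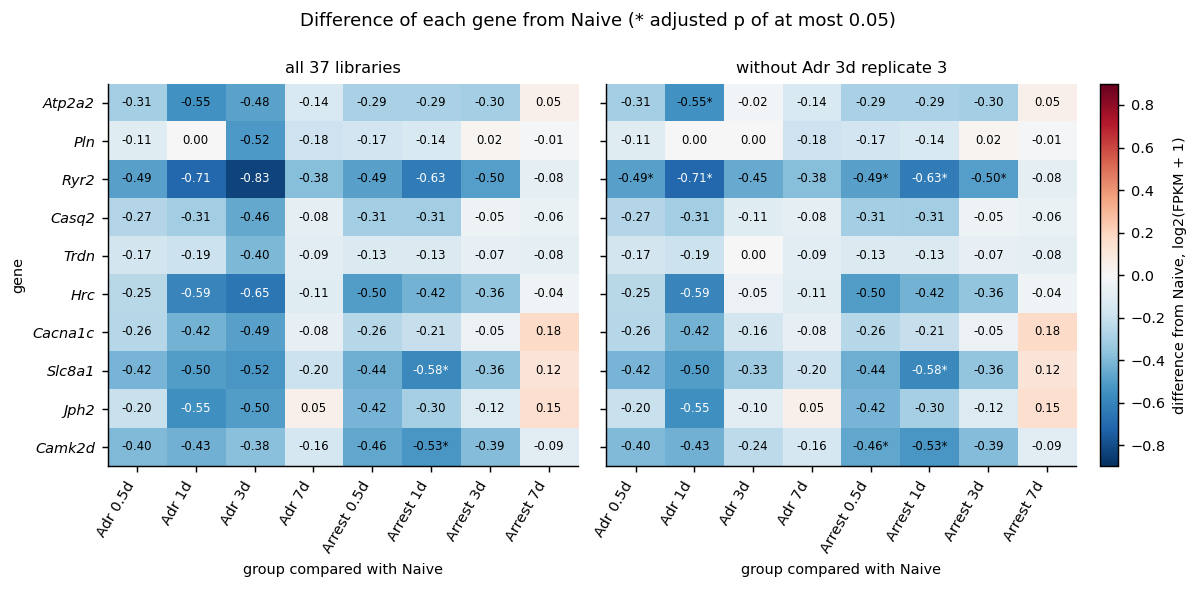
Difference of each gene (rows) from Naive in each group (columns), on the log2(FPKM + 1) scale, in the fit of all 37 libraries (left) and without Adr 3-day replicate 3 (right); blue is lower, red is higher, and a star marks an adjusted p of at most 0.05. Stars are on 2 cells in the left panel, Slc8a1 and Camk2d at 1 day after arrest, and on 9 in the right, 5 of which are Ryr2.

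Ryr2, the ryanodine receptor through which the store releases calcium, lay below Naive in every library of 6 of the 8 groups. Its Naive libraries read 42.2, 43.8, 43.0, 39.3 and 43.5 FPKM. At 1 day of Adr it read 24.6, 27.2, 23.9 and 26.7, and at 1 day after arrest 25.2, 30.5, 25.4 and 27.3. Every one of these lay below every Naive value, and the means were 60.4% and 63.9% of Naive. At 0.5 days the values were 29.9, 30.5, 24.1 and 36.3 in Adr and 25.2, 28.2, 31.4 and 35.7 after arrest. At 3 days they were 33.5, 29.2, 10.1 and 29.5 in Adr, the 10.1 being the library that stood apart, and 31.8, 33.4, 31.0 and 23.55 after arrest. All of these, too, were below the lowest Naive library. By 7 days 1 of 4 Adr libraries was inside the Naive range, at 39.4 beside 22.7, 36.3 and 33.4, and 3 of 4 Arrest libraries were above its lower end, at 39.8, 42.9 and 44.1 beside 34.2.

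The differences of Ryr2 from Naive on the log2(FPKM + 1) scale were -0.71 (SE 0.20) at 1 day of Adr and -0.63 (SE 0.20) at 1 day after arrest in the fit of all libraries, with adjusted p of 0.0837 and 0.0516, which missed the threshold. Without Adr 3-day replicate 3 the same differences had an SE of 0.13 and adjusted p of 0.00344 and 0.00183. In that fit Ryr2 also fell at 0.5 days in Adr (-0.49, adjusted p = 0.0476), at 0.5 days after arrest (-0.49, adjusted p = 0.0217) and at 3 days after arrest (-0.50, adjusted p = 0.0488). With the trend with gene length also removed, those 3 calls were lost, at -0.29 (adjusted p = 0.271), -0.33 (adjusted p = 0.104) and -0.29 (adjusted p = 0.23). Without that correction it did not pass at 3 days of Adr (-0.45, adjusted p = 0.48) although no library overlapped Naive. In the fit without Adr 3-day replicate 3, the 7-day difference after arrest was -0.08, with a 95% interval from -0.34 to 0.18. In Adr at 7 days it was -0.38 in that fit, from -0.64 to -0.12, with an adjusted p of 0.565. With all libraries, no member passed an unadjusted p of 0.05 at 7 days in either arm.

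Casq2, Trdn and Hrc, whose proteins sit beside the receptor in the store, did not pass against Naive. Casq2, the calcium-binding protein of the store, had a difference of -0.31 at 1 day in both arms (adjusted p = 0.539 in Adr and 0.459 after arrest, and 0.344 and 0.27 without Adr 3-day replicate 3), and its libraries overlapped Naive in every group. Trdn, which anchors Casq2 to the receptor, ranged from 24.1 to 34.4 FPKM at 1 day of Adr and was at least 29.6 in Naive, a difference of -0.19 (adjusted p = 0.691 and 0.309). Hrc, a further calcium-binding protein of the store, was at 116, 105, 115 and 145 FPKM at 1 day of Adr, each below the lowest Naive value of 155. Its difference there was -0.59, with an adjusted p of 0.37 with all libraries and 0.0854 without the library that stood apart, so it did not pass. None of the 3 passed in any of the 8 comparisons with Naive in either fit.

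Atp2a2, which encodes the SERCA2 pump, was lowest at 1 day of Adr. There it read 1115, 1127, 886 and 1152 FPKM, while the Naive libraries read 1599, 1654, 1668, 1298 and 1588. All 4 values were below the lowest Naive library, and the mean was 68.5% of Naive. The difference was -0.55 (SE 0.23, adjusted p = 0.254) with all libraries, and -0.55 (SE 0.12, adjusted p = 0.0153) without Adr 3-day replicate 3, in which Atp2a2 was at 427 FPKM beside 1507 to 1552 in its group. At 1 day after arrest it read 1264, 1389, 1391 and 1057, which overlapped Naive, and the difference of -0.29 did not pass in either fit (adjusted p = 0.498 and 0.121). By 7 days after arrest it stood at 1602, 1361, 1754 and 1740 FPKM, 103% of the Naive mean.

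Pln, the inhibitor of the pump, was at its Naive level at 1 day of Adr. At 1 day of Adr it read 662, 572, 498 and 694 FPKM against 659, 583, 615, 489 and 685 in Naive, and the difference was -0.002 with a 95% interval from -0.27 to 0.27 in the fit without the library that stood apart. Over the 8 groups its mean stayed between 87.5% and 102% of Naive once that library was left out, the narrowest range beside that of Trdn. Pln passed in no comparison in either fit.

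Slc8a1, the sodium-calcium exchanger of the cell membrane, was lowest at 1 day after arrest. Its Naive libraries read 17.5, 15.6, 12.4, 11.1 and 14.4 FPKM, and at 1 day after arrest it read 9.41, 11.1, 7.15 and 9.02. At 0.5 days after arrest it read 9.83, 10.4, 9.31 and 10.8. Both sets of 4 lay below every Naive library, the closest pair being 11.06 and 11.10. In Adr the values at 1 day were 11.7, 11.8, 7.52 and 8.23, which overlapped Naive. Slc8a1 fell at 1 day after arrest by 0.58 on the log2 scale (SE 0.17, adjusted p = 0.0388; without Adr 3-day replicate 3, adjusted p = 0.0157). That call was lost without any 1 of Naive replicates 1, 2 and 5 or of 1-day Arrest replicates 1, 3 and 4, with adjusted p from 0.0624 to 0.167 in fits that kept the library that stood apart. In Adr at 1 day the difference was -0.50 and did not pass (adjusted p = 0.161, and 0.0788 without Adr 3-day replicate 3).

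Cacna1c, the pore of the L-type channel, and Jph2, the tether of the dyad, did not pass against Naive. Cacna1c read 4.09, 6.26, 5.04 and 6.56 FPKM at 1 day of Adr, beside a Naive range of 5.53 to 8.95, with a difference of -0.42 (adjusted p = 0.313, and 0.121 without the library that stood apart). Jph2 read 74.5, 82.7, 59.9 and 63.6 FPKM there, beside a Naive range of 77.5 to 119.5, with a difference of -0.55 (adjusted p = 0.261 and 0.0783). At 7 days after arrest the means of Cacna1c, Jph2 and Slc8a1 were 113%, 110% and 108% of Naive, with differences of 0.18, 0.15 and 0.12 that did not pass.

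Camk2d, the calmodulin-dependent kinase of the cardiomyocyte, fell at 1 day after arrest. Its Naive libraries read 6.71, 6.02, 6.28, 5.18 and 6.03 FPKM, and the libraries at 1 day after arrest read 4.49, 3.74, 3.86 and 3.48. At 0.5 days after arrest they read 3.79, 3.88, 3.97 and 4.76, and at 3 days 4.14, 4.51, 4.48 and 4.32. None of these libraries reached the lowest Naive value. The difference at 1 day after arrest was -0.53 (SE 0.14, adjusted p = 0.0183; 0.00687 without Adr 3-day replicate 3). It passed in 9 of the 10 fits that left out 1 library, the exception being the fit without 1-day Arrest replicate 3 (adjusted p = 0.0547). It did not pass with the trend with gene length removed (-0.31, adjusted p = 0.216) or with the number in the label as a covariate (-0.50, adjusted p = 0.281). Those numbers did not overlap between Naive and 1 day after arrest, so that covariate and the group cannot be fully told apart. For every member the same held at 3 days after arrest and in Adr at 1, 3 and 7 days. At 0.5 days after arrest the difference of -0.46 passed only without Adr 3-day replicate 3 (adjusted p = 0.0254 against 0.0568), and not when the length trend was removed as well (-0.33, adjusted p = 0.159). In Adr at 0.5 days the values of 5.05, 5.08, 3.67 and 3.70 were also below Naive, with a difference of -0.40 that did not pass.

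Counted over the list, members whose every library lay below every Naive library were 2 of 10 at 0.5 days of Adr, Ryr2 and Camk2d, beside 2.97% of all genes tested. They were 3 at 1 day of Adr, Atp2a2, Ryr2 and Hrc (2.74%), and 1 at 3 days, Ryr2, both with all libraries (1.08%) and without the library that stood apart (1.65%). After arrest they were Ryr2, Slc8a1 and Camk2d at 0.5 days (3.71%) and at 1 day (4.8%), and Ryr2 and Camk2d at 3 days (1.78%). At 7 days there were none in Adr (0.853%) or after arrest (0.659%). No member had every library above Naive in any group.

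Ryr2, Slc8a1 and Camk2d, the members whose libraries were all below Naive at 0.5 and 1 day after arrest, were set beside each other at their promoters. RefSeq windows of 300 bases on GRCm38.p6, from 250 before to 50 after a start of transcription, were found for 8 of the 10 members, not for Atp2a2 and Trdn. The windows below are those of the 3 genes, 5′ to 3′ on the strand of the gene, and capitals mark a GC box (GGGCGG) or a GATA motif (AGATAA) on either strand. They lie at chr13:12106896-12107195 on the minus strand, chr17:81738338-81738637 on the minus strand and chr3:126596701-126597000 on the plus strand.
Ryr2: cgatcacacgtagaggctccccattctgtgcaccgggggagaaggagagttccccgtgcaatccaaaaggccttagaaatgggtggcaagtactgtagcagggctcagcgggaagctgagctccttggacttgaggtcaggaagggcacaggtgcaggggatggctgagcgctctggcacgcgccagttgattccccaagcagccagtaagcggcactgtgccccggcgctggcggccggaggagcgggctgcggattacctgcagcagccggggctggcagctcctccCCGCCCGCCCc
Slc8a1: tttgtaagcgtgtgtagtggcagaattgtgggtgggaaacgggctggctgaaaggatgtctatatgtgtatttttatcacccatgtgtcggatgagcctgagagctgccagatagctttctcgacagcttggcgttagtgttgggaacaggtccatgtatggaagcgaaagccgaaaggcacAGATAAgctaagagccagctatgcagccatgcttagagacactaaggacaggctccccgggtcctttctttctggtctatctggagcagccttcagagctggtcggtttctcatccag
Camk2d: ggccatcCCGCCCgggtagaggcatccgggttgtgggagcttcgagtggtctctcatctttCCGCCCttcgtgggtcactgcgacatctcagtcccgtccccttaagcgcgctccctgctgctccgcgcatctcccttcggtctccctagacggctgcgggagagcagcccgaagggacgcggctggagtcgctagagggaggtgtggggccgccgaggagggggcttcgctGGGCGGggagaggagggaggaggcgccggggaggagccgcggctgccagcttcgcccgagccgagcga
The GC content was 65.3% for Ryr2, 50.7% for Slc8a1 and 70.3% for Camk2d, beside a median of 52.7% over all 32851 windows of that length. The GC box was found 2 times in the Ryr2 window, where the copies overlap in part, 3 times in that of Camk2d and not in that of Slc8a1, and 35.7% of all windows held it. The GATA motif was found once, for Slc8a1 (11.2% of all windows). An E-box (CANNTG) stood in the windows of Ryr2 and Slc8a1 but not of Camk2d (72.3% of all windows). TATAAA (13.6%), TGACG (20.8%), MEF2 (1.86%) and the CArG box (1.63%) were not matched in any of these 3. No motif searched was found in all 3 windows.

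The members differed in length, and length moved with the differences from Naive. Ryr2, Camk2d, Cacna1c and Slc8a1 have 28790, 22493, 21864 and 18807 bases of counted sequence, longer than 99.9%, 99.7%, 99.6% and 99.2% of the genes tested, while Hrc, Casq2 and Pln have 2566, 2736 and 2759. Over all genes tested, the median difference at 1 day after arrest was 0.14 in the shortest of 4 length classes and -0.09 in the longest, and at 1 day of Adr it was 0.13 and -0.06. Among the 152 tested genes of at least 18000 bases, 31 fell at 1 day after arrest, 20.4%, beside 3.24% of all genes, and their median difference was -0.17. With the trend of each library with gene length removed, Slc8a1 and Camk2d no longer passed at 1 day after arrest, with differences of -0.39 and -0.31 (adjusted p = 0.201 and 0.216). With the trend removed and the library that stood apart left out, Ryr2 passed at 1 day after arrest (-0.38, adjusted p = 0.041) and at 1 day of Adr (-0.51, adjusted p = 0.029), and Atp2a2, with 6081 bases, at 1 day of Adr (-0.53, adjusted p = 0.0314). No other member passed against Naive in that fit. RNA integrity per library is not given in the sources used here, and its part, and that of gene length, in these results was not tested.

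**Figure D3:**
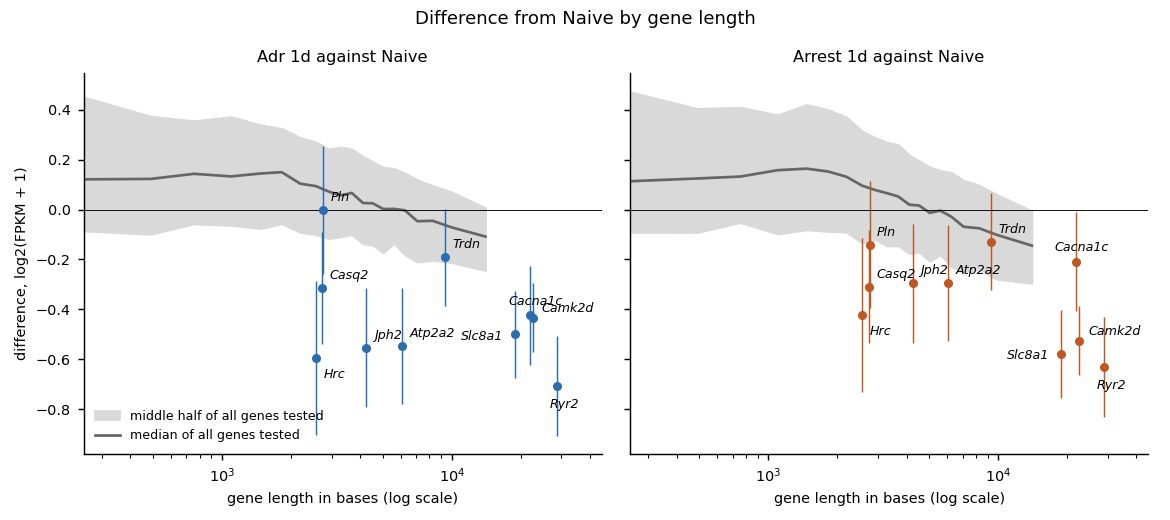
Difference from Naive on the log2(FPKM + 1) scale (vertical axis) against gene length in bases (horizontal axis, log scale) at 1 day of Adr (left) and 1 day after arrest (right), with all libraries. Points are the 10 genes with their standard error, the line is the median and the band the middle 50% of all genes tested in 20 bins of length. The line falls with length in both panels and ends at 14023 bases, the median length of its last bin. Ryr2, Slc8a1 and Camk2d lie to the right of that end and lower than it, and Cacna1c also lies to the right.

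Markers of cell types were read beside these calls. The summed level of 10 cardiomyocyte markers ranged from 20176 to 24116 FPKM at 1 day after arrest against 16715 to 20055 in Naive, so it was higher in every library, and 0 of the 10 passed in the fit of all libraries. At 1 day of Adr it ranged from 16323 to 20425. At 0.5 days it ranged from 14182 to 21005 after arrest and from 19135 to 22912 in Adr. The endothelial sum of Pecam1, Cdh5 and Kdr ranged from 77.8 to 129 FPKM at 1 day after arrest against 105 to 124 in Naive, with 2 of 3 markers lower and past the threshold. The fibroblast sum of 4 markers was 276 to 386 FPKM at 1 day of Adr and at most 265 in Naive, with 0 of 4 past the threshold. The leukocyte sum of 7 markers was 259 to 388 FPKM at 1 day after arrest against 259 to 453 in Naive. At 3 days after arrest the cardiomyocyte sum was 11414, 20169, 20043 and 12648.5 FPKM in replicates 1 to 4, and the leukocyte sum 690, 504, 381 and 988. In the same order Atp2a2 read 1053, 1598, 1425 and 1053 FPKM, and Ryr2 31.8, 33.4, 31.0 and 23.55. The sum of 4 atrial cardiomyocyte markers was 32.7 to 72.7 FPKM at 1 day after arrest and 30.0 to 693 at 1 day of Adr, against 13.8 to 32.4 in Naive, with 0 of 4 past the threshold. The erythroid sum of 5 markers was 1563 to 1719 FPKM at 1 day after arrest against 1697 to 3951 in Naive, with 0 of 5 past the threshold. Of 3 smooth muscle markers 1 was lower and past the threshold at 1 day in both arms, and of 6 skeletal muscle markers 3 were tested and 1 was lower at 1 day after arrest. No cardiomyocyte, endothelial, fibroblast or leukocyte marker was absent from the tested genes. The part of these cell types in the results was not tested.

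To separate arrest from adrenaline with its procedure, Arrest was compared with Adr at the same time. No member passed at any of the 4 times with all libraries (backgrounds 0%, 0%, 0% and 0.00605%) or without Adr 3-day replicate 3 (0% at each of the 4 times). For Ryr2 the 95% interval of the difference between Arrest and Adr ran from -0.28 to 0.28 at 0.5 days and from -0.20 to 0.35 at 1 day in the fit without that library. Atp2a2 was 0.25 higher after arrest at 1 day (adjusted p = 0.61), and Camk2d was -0.09 (adjusted p = 0.888). The adjusted p of all 10 members lay at or above 0.61 in each of these comparisons in that fit. At 7 days Ryr2 was 0.30 higher after arrest than in Adr, with an interval from 0.03 to 0.58 in the fit without that library and an adjusted p of 1. Slc8a1 at 7 days read 14.7, 13.5, 16.9 and 16.4 FPKM after arrest and 10.9, 13.2, 12.3 and 12.2 in Adr, a difference of 0.31 that did not pass (adjusted p = 1).

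Levels at 1 day were also compared with those at 7 days in the same arm. After arrest, Slc8a1 was lower at 1 day than at 7 days, with 9.41, 11.1, 7.15 and 9.02 FPKM against 14.7, 13.5, 16.9 and 16.4, a difference of -0.70 (SE 0.18, adjusted p = 0.0395), and it was the only 1 of the 10 to pass with all libraries (background 1.89%). The call was kept in 2 of 9 fits that left out 1 library, those without Adr 3-day replicate 3 (adjusted p = 0.0126) and without 1-day Arrest replicate 2 (adjusted p = 0.044), and lost without any of the other 7 libraries compared. Without Adr 3-day replicate 3, Ryr2 passed as well (-0.55, adjusted p = 0.0157), so 2 of 10 members did (3.96%). In Adr no member passed with all libraries (0.0423%) or without it (0.381%), the nearest being Jph2 at -0.60 (adjusted p = 0.408 and 0.129).

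Ratios of 2 members within a library depend little on how that library was scaled. They still hold the trend with gene length where the 2 genes differ in length, as Casq2 (2736 bases) and Ryr2 (28790 bases) do. The log2 ratio of Pln to Atp2a2 was -1.37 ± 0.12 in Naive (SD, n = 5) and -0.82 ± 0.11 at 1 day of Adr (SD, n = 4), so relative to the pump its inhibitor was higher by 0.55 on the log2 scale, and each of the 4 libraries was above each Naive library. The exact two-sided permutation test over these libraries gave p = 0.00794, the smallest that 4 against 5 allows, and 0.143 after adjustment over the 24 tests of 3 ratios in 8 groups. At 3 days after arrest the ratio was -1.04 ± 0.13 (exact permutation p = 0.0238, adjusted p = 0.143) with groups that overlapped. The ratio of Casq2 to Ryr2 was 2.43 ± 0.14 in Naive, 2.75 ± 0.10 at 1 day after arrest (exact permutation p = 0.0238) and 2.88 ± 0.18 at 3 days, where every library was above Naive (exact permutation p = 0.0159), and both had an adjusted p of 0.143. The ratio of Slc8a1 to Atp2a2 was -6.69 ± 0.19 in Naive and -6.98 ± 0.30 at 1 day after arrest (exact permutation p = 0.119, adjusted p = 0.286). None of the 24 tests passed the adjustment, and 6 had an unadjusted p under 0.05. A single ratio at 0.00794 could not have passed this adjustment unless several others were as low. The adjusted p therefore cannot decide whether 1 ratio differed from Naive.

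**Figure D4:**
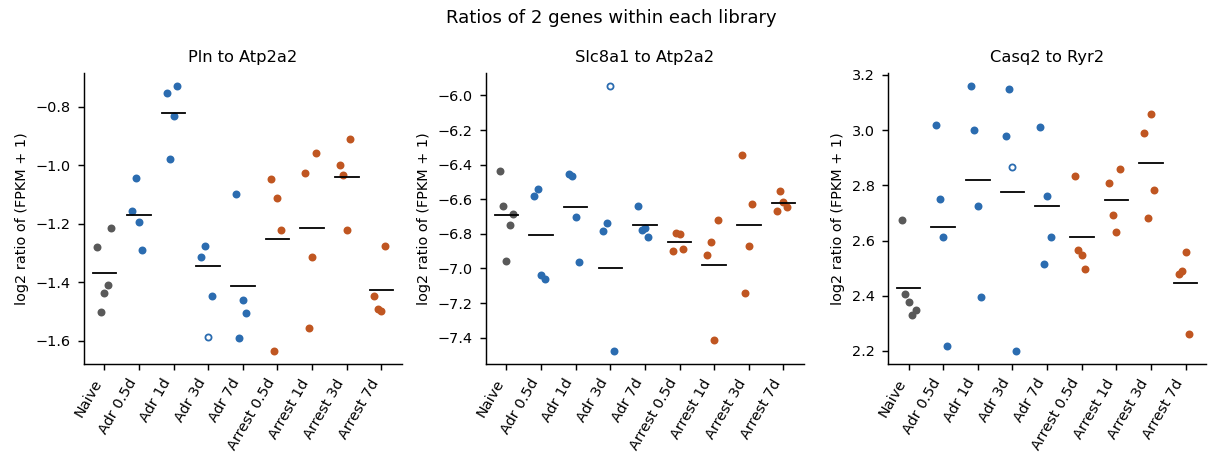
Log2 ratio of (FPKM + 1) of 2 genes within each library (vertical axes, which do not start at 0) by group (horizontal axis), with points, lines and the open point as in the plot of FPKM by library. At 1 day of Adr the 4 ratios of Pln to Atp2a2 lie between -0.98 and -0.73, above the highest Naive value of -1.21.

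Around the 10 members, a wider list of 79 genes of the same pathway was counted, of which 70 were tested. With all libraries, 1 was higher and 2 were lower at 0.5 days after arrest, 1 was higher and 3 were lower at 1 day, which is 4.29% and 5.71% of the list, near the 3.21% and 7.11% of all genes, and 0 passed at 3 or 7 days or in any Adr group. Without Adr 3-day replicate 3, 4 were higher and 4 lower at 1 day after arrest, 11.4% beside 10.3% of all genes, and with the trend with gene length removed 2 passed there. The list's median difference at 1 day after arrest was 0.02, beside 0.03 for all genes tested and -0.30 for the 10 members. By role, the 14 tested genes of the calmodulin kinase and calcineurin group held 2 that fell at 0.5 and 1 day, and the 17 of the release and junction group held 1 that rose at both times and 1 that fell at 1 day. Among the 9 SERCA regulators, the 16 sarcolemmal channel genes, the 3 extrusion genes and the 11 mitochondrial calcium genes, none passed against Naive with all libraries.

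Tmem38b, a potassium-permeable channel of the store that balances charge during calcium release, rose after arrest. It was at 7.27 ± 1.504 FPKM in Naive (SD, n = 5), 15.2 ± 2.78 at 0.5 days and 15.7 ± 3.76 at 1 day (SD, n = 4), with differences of 0.97 (SE 0.24, adjusted p = 0.0249) and 1.00 (adjusted p = 0.0103), and every library was above the highest Naive value of 9.07. Camk2g and Camk2a, kinases of the same family as Camk2d, both fell. Camk2g went from 8.10 ± 1.36 FPKM in Naive to 4.86 ± 0.64 at 0.5 days after arrest, a difference of -0.63 (adjusted p = 0.0128), and to 5.58 ± 0.71 at 1 day (-0.46, adjusted p = 0.0418). Camk2a, at 4.01 ± 1.07 FPKM in Naive, was at 1.82 ± 0.24 at 0.5 days (-0.80, adjusted p = 0.0173) and 2.06 ± 0.68 at 1 day (-0.71, adjusted p = 0.0187). Itpr1, the inositol trisphosphate receptor, a second release channel, fell at 1 day from 3.62 ± 0.374 to 2.59 ± 0.546 FPKM (-0.37, adjusted p = 0.041). Against 1-day Adr none of these 4 passed, with adjusted p from 0.645 to 0.968, and from 0.467 to 0.948 without Adr 3-day replicate 3. Without Adr 3-day replicate 3 each of these calls against Naive was kept, with adjusted p from 0.00409 to 0.0332. With the trend with gene length removed, fewer genes of the wider list than these 4 passed at 1 day after arrest, so not all of the calls there were kept.

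Across the 36 libraries other than Adr 3-day replicate 3, the members varied together to differing degrees, which is given as a description since the values share library and depth. Pearson's r of log2(FPKM + 1) over the 45 pairs ran from 0.14 for Pln and Jph2 to 0.84 for Slc8a1 and Camk2d, with a median of 0.57. Casq2 and Slc8a1 were at 0.80 and stayed close when each group's mean was removed (0.86), while the median of all pairs was then 0.41. Pln had r from 0.14 to 0.41 with 8 members and 0.64 with Trdn, which was 0.70 with group means removed.

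Among all genes tested, those most like Ryr2 were Akap6 (r = 0.86), Dst (0.84) and Zfp106 (0.84). Akap6 encodes an anchor of protein kinase A in the cardiomyocyte. For Slc8a1 they were Prkaa2 (0.85), Camk2d (0.84) and Kdr (0.82), and for Camk2d Qk (0.86), Kdr (0.86) and Prkaa2 (0.85). For Atp2a2 they were Cmya5 (0.85), Sdha (0.83) and Map3k20 (0.83), and for Hrc Tmem143 (0.89), Sdha (0.87) and Perm1 (0.85). Jph2 was nearest to Trak1 (0.87), Kif1c (0.85) and Slc2a4 (0.85), and Casq2 to Srl (0.815), Slc8a1 (0.80) and Egln3 (0.79). Cacna1c was nearest to Cyb5r2 (0.785), Hectd4 (0.775) and Rbm20 (0.76), and Trdn to Txlnb (0.71), Sdha (0.71) and Gatb (0.70). The closest to Pln reached no more than 0.65, for Zscan20, followed by Spryd7 (0.65) and Naa35 (0.64).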

How the data were processed

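RNA from mouse left ventricle was made into 37 libraries in 9 groups and sequenced as paired reads, and the authors aligned the reads with HISAT2 and compared groups with DESeq2. What the authors deposited is a single table, FPKM per gene and library. The genome build, annotation, counting tool and strand setting are not given in the sources used here. Groups came from the labels. FPKM values gave whole fragments for 100% of values (tolerance 0.1), and depth was 13.2 to 30.2 M fragments per library, which set the counting precision.

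The median-ratio factor was the same in all 37 libraries (1.013): the deposited FPKM were already on that scale, and this rescaling changed no library relative to another. A gene was tested if 4 or more libraries reached 0.5 FPKM (16530 genes). The log2(FPKM + 1) values of all 37 libraries were fitted with limma 3.58.1 in R 4.3.3, with 1 mean per group, and p-values were adjusted by Benjamini-Hochberg within each of 14 comparisons, at a threshold of 0.05. A fold change on this scale understates that of low genes. Ratios were tested by exact permutation. The scripts were tested on simulated data. Alternatives were other scalings, filters, pseudocounts, weights, covariates, a correction for gene length and leaving out each library. Counts of calls are given with and without Adr 3-day replicate 3.

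The members and lists were chosen with earlier results of these data known. All 10 members are named, with those genes of the wider list that passed with all libraries against Naive or between Arrest and Adr, and the 3 genes most correlated with each member. Promoters are from RefSeq GRCm38.p6. Symbols were used as deposited, and fragments of overlapping genes, at most 5.12% of those of a member (D830005E20Rik and Trdn), cannot be told apart.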

Additional observations from a re-analysis of the deposited data

Results flagged for a closer look

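Among 117 groups of values, the FPKM of a member or a ratio of 2 members in 1 group of 4 or 5 libraries, 6 held a library far from the others of its group, and chance gives about 5% of groups. Of these, 3 were Adr 3-day replicate 3: Atp2a2 was at 427 FPKM there against 1507 to 1552, Pln at 142 against 569 to 633 and Hrc at 32.5 against 159 to 183. Atp2a2 was also set apart in 1-day Adr replicate 3, at 886 FPKM against 1115 to 1152, and in Naive replicate 4, at 1298 against 1588 to 1668. The log2 ratio of Casq2 to Ryr2 was 2.68 in Naive replicate 1 against 2.33 to 2.41 in the other Naive mice. The cause of these values was not tested.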

How the results depend on the processing

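Each comparison was recomputed under the alternatives, and no result changed direction while past the threshold. Leaving aside the fits that left out 1 library, 2054 of the members' differences kept their side of the threshold, 33 newly passed and 13 no longer passed. With all libraries 2 members passed at 1 day after arrest, 1 in Arrest at 1 day against 7 days and 0 elsewhere. Slc8a1 passed at 1 day after arrest in 14 of 25 alternatives (adjusted p from 0.0114 to 0.281) and Camk2d in 21 of 25 (0.00465 to 0.281). These 25 include the 10 fits that left out 1 library. At 1 day after arrest the count was 4 with quantile normalization, 1 with no filter, and 0 with the length trend removed or the label number as covariate. It was 3, Ryr2, Slc8a1 and Camk2d, when scaled by fragments, with a mean of at least 1 FPKM, quality weights or sex as covariate. With only the 2 compared groups it was 2, Ryr2 and Camk2d. For Arrest at 1 day against 7 days it was 0 with no filter, the length trend removed, the label number or sex as covariate, and 3 with sample quality weights or only the 2 compared groups. At 0.5 days after arrest it was 1 when scaled by fragments, with a mean of at least 1 FPKM, with quality weights or with only the 2 compared groups. In Adr, quality weights gave 1 at 0.5 days, 2 at 1 day and 1 at 1 day against 7 days, and only the 2 compared groups gave 1 at 1 day. The last 2 alternatives were chosen after seeing the data, both without Adr 3-day replicate 3. With the length trend removed they gave 2 at 1 day of Adr, 1 at 1 day after arrest, 0 in Arrest at 1 day against 7 days, and 0 at 0.5 days in both arms and 3 days after arrest. With limma-voom on recovered fragments they gave 1 and 3 in Adr at 0.5 and 1 day, 2 and 1 after arrest at 0.5 and 3 days, and 3 in Arrest at 1 day against 7 days. Leaving out 1 library gave 0 to 3 at 1 day after arrest, 0 to 2 in Arrest at 1 day against 7 days, 0 to 1 at 3 days of Adr, 0.5 days of Adr and 3 days after arrest, and 0 to 2 at 1 day of Adr and 0.5 days after arrest. Over all genes tested, 1176 were called at 1 day after arrest, and 1947 with quality weights, 1703 without Adr 3-day replicate 3 and 34 with the label number as covariate. With that covariate the genes called went from 114 to 0 at 1 day of Adr and from 23 to 0 at 3 days after arrest. The label numbers of Naive did not overlap those of 1 or 3 days after arrest, or of Adr at 1, 3 or 7 days. In these groups that covariate and the group difference cannot be fully told apart. In Arrest at 1 day against 7 days 312 were called, and 1815 with quality weights, 635 with only the 2 compared groups, 654 without Adr 3-day replicate 3, 196 with the length trend removed and 72 with the label number. Leaving out 1 library gave 487 (1-day Arrest replicate 3) and 575 (replicate 1) to 1703 at 1 day after arrest, 41 and 51 (the same libraries) to 654 in Arrest at 1 day against 7 days, 125 (0.5-day Arrest replicate 2) to 910 at 0.5 days after arrest and 27 (1-day Adr replicates 3 and 4) to 416 at 1 day of Adr, where 531 and 114 were called with all libraries. It gave 3 (Naive replicates 1 and 5) to 223 at 0.5 days of Adr and 12 (Naive replicate 1) to 186 at 3 days after arrest, where 31 and 23 were called. The highest count in each case was without Adr 3-day replicate 3. The cause of these changes was not tested.

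Replicate numbers did not pair the samples: 56 correlations of same-numbered libraries ran from -0.277 to 0.237, and in 0 comparisons was every pair above 0.1. With the replicate block 2 members passed at 1 day after arrest and 1 in Arrest at 1 day against 7 days, and genes called at 1 day after arrest went from 1176 to 768.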
